A study of Mus musculus with 2 samples.

Results

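The 43 genes described here belong to the Wnt signalling pathway and were measured in mouse embryonic fibroblasts: 11 ligands, 13 receptors and co-receptors, 8 secreted antagonists, 4 cytoplasmic transducers, 4 nuclear factors, and 3 further modulators (Rspo3, Lgr4 and Cthrc1). They were chosen by name, with earlier results of these data known, and all 43 were found among the 16579 genes measured. The study compared an Lsh+/+ (wild type) line of these cells with an Lsh-/- (knockout) line, both grown in DMEM with fetal bovine serum, glutamine and antibiotics, on 1 Affymetrix Mouse Genome 430 2.0 array each. Lsh is a chromatin remodeller of the SNF2 family, encoded by Hells and needed for normal DNA methylation. The age and number of the embryos behind each line, and whether a line is a single clone, are not stated in the sources used here. There was no replicate and so no test, and the number of arrays limits the precision of every value. Each difference is the knockout minus the wild type on the log2 scale of the deposited values, so a difference of 1 is 2-fold.

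Wnt proteins are secreted, lipid-modified ligands that bind Frizzled receptors at the cell surface. With the co-receptors Lrp5 and Lrp6 they stop the destruction complex of Axin, Apc and Gsk3 kinases from degrading beta-catenin, which then enters the nucleus and acts with the Tcf and Lef factors. Other Wnt proteins act without beta-catenin through Ror and Ryk receptors and the planar cell polarity proteins. Fibroblasts are both a source of Wnt ligands and a source of the secreted proteins that bind and restrain them, such as the Sfrp and Dkk families. R-spondins and their Lgr receptors strengthen the signal by removing the ubiquitin ligases Znrf3 and Rnf43 from Frizzled.

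Of the 43 genes, 6 were at least 2-fold lower in the knockout and 1 was at least 2-fold higher. A gene was counted only where its brighter value reached the array-wide median, here called the dimness limit, of 3.86 (wild type) or 3.88 (knockout). It is a limit of brightness and not of detection. By the same rule 3.35% of all measured genes were lower, 2.57% were higher and 5.92% differed in either direction, against 14.0% lower and 2.33% higher among the Wnt genes. The median difference of the 43 genes was 0.0069, close to the 0.015 of all measured genes, and 21 differences lay below 0 and 22 above. The lower genes were Cthrc1, Sfrp2, Dkk2, Sfrp1, Rspo3 and Fzd8, and the higher gene was Apc. Of the 6 lower genes 5 encode secreted proteins, from 21 secreted members in all; 1 of the 14 cell-surface members was lower, and none of the 8 members that act inside the cell was. In 32 of the 43 genes the brighter value reached the limit, and in the other 11 both values lay below it. Of all measured genes 55.3% reached it, so a larger part of the Wnt genes could be counted at all.

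**Figure D1:**
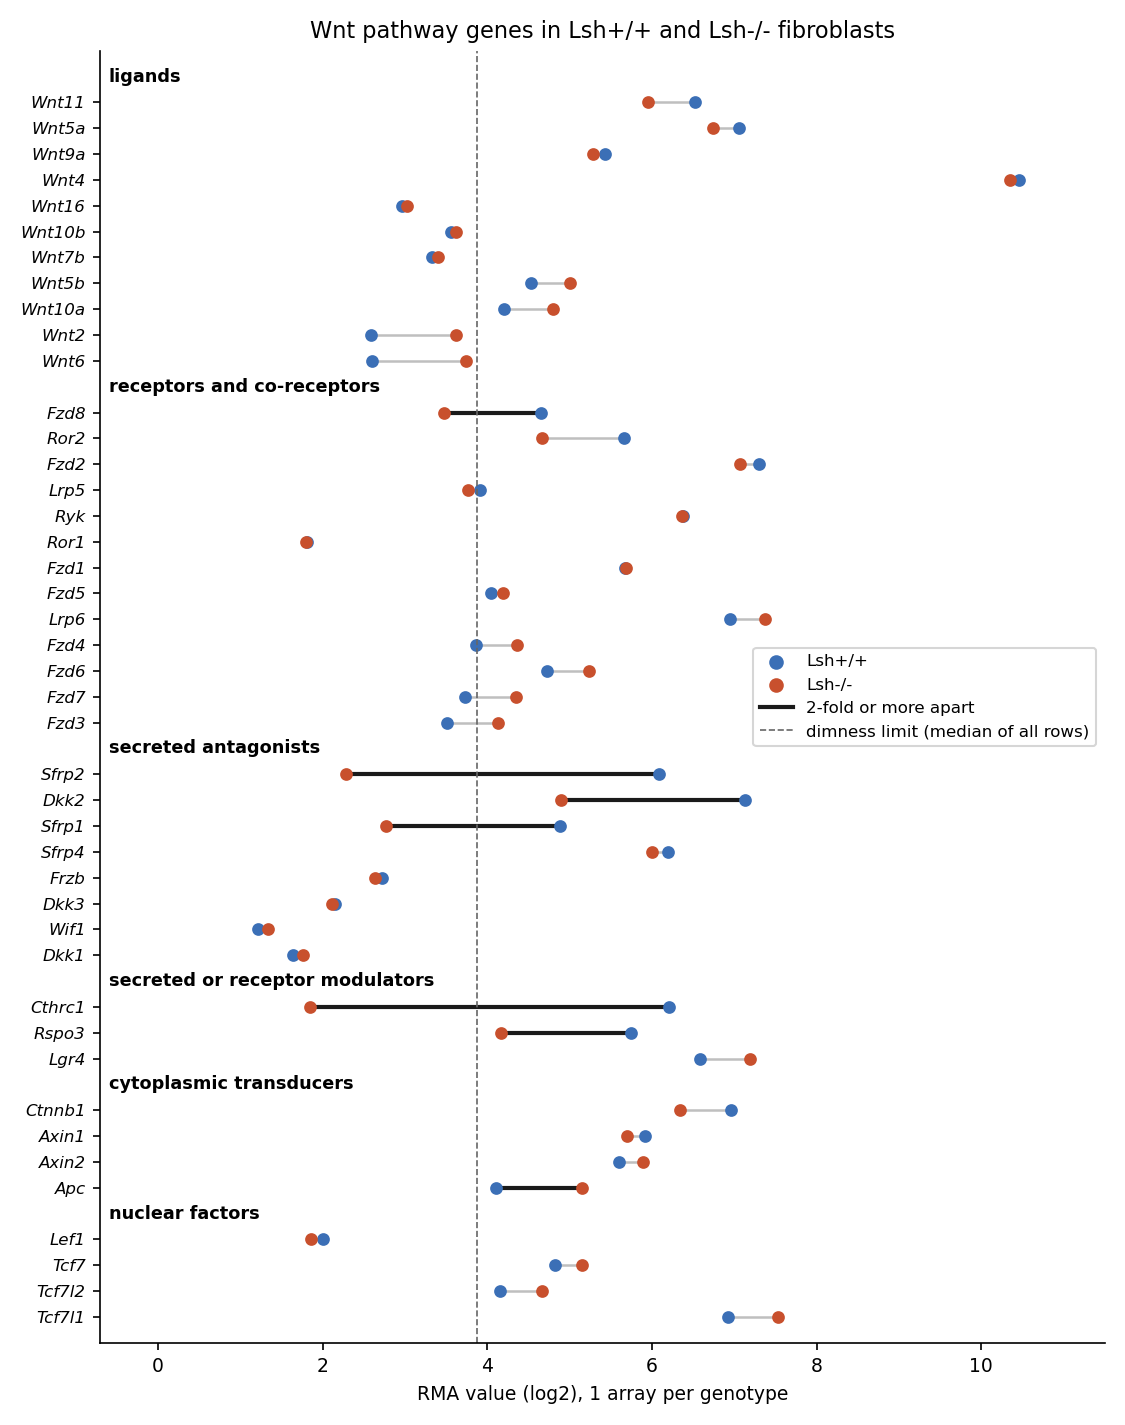
RMA values (log2, horizontal axis) of the 43 Wnt pathway genes by role, with a blue point for the Lsh+/+ array and a red point for the Lsh-/- array; black bars join values at least 2-fold apart by the counting rule, and the dashed line is the mean of both dimness limits. The long bars belong to Sfrp2, Dkk2, Sfrp1, Cthrc1 and Rspo3, whereas the values of most ligands, receptors and intracellular members lie close together.

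Several measures of the arrays differed along with the genotype. Hells itself was 2.75-fold lower in knockout cells, at 5.22 against 6.68. Which exons the deletion removes, and so whether the Hells probes can check it, was not given in the sources used here. Control probe sets at the 3′ and 5′ ends of a transcript report on RNA integrity, and the knockout array had the wider gap between them, by 0.60 for Actb and 0.70 for Gapdh. The 9 hybridisation controls, which are added RNAs, differed by a median of 0.44 (lowest 0.21, highest 0.78), with the knockout array the brighter. Scaling to them lowers every knockout value alike: it left 9 Wnt genes lower and none higher by the counting rule, and put 31 of the 43 differences below 0 instead of 21. Under the same scaling 8.14% of all measured genes were lower and 1.01% higher, and 14192 of the 16579 differences lay below 0. Every direction given is therefore relative to the other genes on the arrays, and a member with a difference between 0 and 0.44 turns negative under that scaling. The part of RNA integrity in the differences was not tested.

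The cells were checked against marker genes. By the counting rule 3.35% of all measured genes were lower and 2.57% higher, which is the background for the marker counts. Of 15 fibroblast markers, 14 reached the limit on at least 1 array (Thy1 did not), 6 were at least 2-fold lower in the knockout and none was higher. Their summed linear value was 22236 (wild type) and 15865 (knockout). Of these markers 14 had differences below 0, with a median of -0.73. The collagen gene Col1a2 read 11.49 and 7.06, 21.5-fold lower, and S100a4 was 15.8-fold lower at 10.28 and 6.29. The matrix genes Postn and Lum were dim in the knockout and at least 7.64-fold and 5.43-fold lower, and Pdgfra and Pdgfrb were 2.28-fold and 2.22-fold lower. Several fibroblast genes therefore differed by as much as Cthrc1 and Sfrp2, while Fn1, Vim and Sparc were bright in both lines with differences of -0.03, -0.09 and -0.21, and Col3a1 was higher by 0.78. Of 9 epithelial markers 2 were higher, Krt18 by at least 33.4-fold (its wild type value was dim) and Krt19 by 8.27-fold. Krt8 (5.98 and 6.23) and Krt14 (5.30 and 5.76) were above the limit in both lines and within 2-fold. Epcam, Cdh1, Krt5, Cldn4 and Esrp1 lay below the limit on both arrays. The summed linear value of the 9 was 277 (wild type) and 1811 (knockout). Of 5 smooth muscle markers 3 were lower (Tagln, Cnn1 and Myl9), with sums of 2714 (wild type) and 951 (knockout) over the 5. Acta2 was within 2-fold at 10.49 and 9.59, and Myh11 lay below the limit on both arrays. Of 6 endothelial markers Pecam1, Cdh5, Tek and Tie1 lay below the limit on both arrays, Egfl7 was lower by 3.32-fold, and Kdr higher by 3.52-fold. Of 4 measured blood markers Ptprc, Adgre1 and Cd3e lay below it on both, and Itgb2 reached it in the wild type at 4.27. In the lists for skeletal muscle, nerve, cartilage and bone, fat and germ cells, Tex101, Lpl and Spp1 were higher by the counting rule and Tnnc1 and Alpl lower. In bulk RNA, fewer cells of a type and less RNA per cell cannot be told apart, and the part of these shifts in the Wnt gene differences was not tested.

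The secreted antagonists held 3 of the 6 lower genes. Sfrp2, a Frizzled-related protein that binds Wnt ligands outside the cell, read 6.09 (wild type) and 2.28 (knockout), a difference of -3.81. The knockout value lay below the limit, so the fold over the limit is at least 4.62. Sfrp1, a close relative, read 4.88 and 2.77, a difference of -2.11, which over the limit is at least 2.00-fold. Dkk2, which binds Lrp co-receptors and in frog embryos can also activate them, read 7.13 and 4.90, above the limit in both lines and 4.69-fold lower. The counting rule requires a lower gene to reach the limit in the wild type. In the knockout only Dkk2 of these 3 antagonists did.

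The remaining 5 antagonists did not differ by 2-fold. Sfrp4 read 6.20 and 6.01, a difference of -0.19, so the Sfrp family was not uniformly lower. Frzb (also known as Sfrp3), Wif1, which binds Wnt ligands directly, and Dkk1 and Dkk3 were dim in both lines, with values from 1.22 to 2.72 and differences from -0.08 to 0.13. At this brightness no change in either direction can be read for them. Of the 8 antagonists, 6 had differences below 0, and all 8 did after scaling to the hybridisation controls.

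The promoters of Sfrp2 and Dkk2, both among the lower Wnt genes with the widest differences, are shown. No other Wnt gene past 2-fold had a promoter sequence in the RefSeq set used. CG dinucleotides, in capitals, are where mammalian DNA methylation takes place. Each is the 250 bases before the gene's start, 5′ to 3′ on the plus strand, from RefSeq on GRCm38.p6: chr3:83766071-83766320 for Sfrp2 and chr3:132085042-132085291 for Dkk2.
Sfrp2: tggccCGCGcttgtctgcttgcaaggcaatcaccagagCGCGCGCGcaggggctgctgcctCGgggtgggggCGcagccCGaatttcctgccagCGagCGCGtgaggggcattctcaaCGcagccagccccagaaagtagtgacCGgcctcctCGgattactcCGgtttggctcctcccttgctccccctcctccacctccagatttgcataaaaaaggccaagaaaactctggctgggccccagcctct
Dkk2: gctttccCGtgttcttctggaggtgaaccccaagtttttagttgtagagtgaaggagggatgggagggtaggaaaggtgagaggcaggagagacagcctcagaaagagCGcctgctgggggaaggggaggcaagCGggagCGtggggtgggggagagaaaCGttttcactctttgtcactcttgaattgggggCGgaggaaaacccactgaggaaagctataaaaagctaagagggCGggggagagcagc
The Sfrp2 window held 16 CG dinucleotides, an observed-to-expected ratio of 0.64, and the Dkk2 window 7, a ratio of 0.45. The genes measured on the arrays that have a window in the table had a median of 13 CG dinucleotides (quartiles 5 and 21) and a median ratio of 0.63 over 16483 windows. The Sfrp2 promoter is thus near the middle of that range in CG content and the Dkk2 promoter in its lower part. Neither window, extended by 50 bases after the start, held the TCF/LEF motif CTTTGAT or CTTTGAA on either strand, nor the E-box CACGTG. No methylation was measured on these arrays.

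Across the Wnt genes, 27 of the 43 had 1 or more windows in the RefSeq table, 36 windows in all. They held a median of 16.5 CG dinucleotides (from 4 to 48), with a median GC content of 65.2% against 58.0% for the genes on the arrays. The TCF/LEF motif lay in 3 of the 36 windows, or 8.33%, against 6.79% of the windows of all genes on the arrays and 8.65% of all 32851 windows in the table. These 3 windows belonged to Wnt5b, Wnt11 and Dkk1, of which none differed by 2-fold. Cthrc1, Sfrp1, Rspo3, Fzd8 and Apc, all past 2-fold, had no window, so the motif could not be looked for in them. The E-box lay in 8.33% of the Wnt gene windows and in 8.97% of those of genes on the arrays. A match is a description of the letters and not a binding site.

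Among the modulators, Cthrc1 and Rspo3 were lower and Lgr4 was not. Cthrc1, a secreted glycoprotein known to bind Wnt, Frizzled and Ror2 and to favour the polarity branch of the pathway, read 6.20 and 1.84. Its difference of -4.36 rests on a dim knockout value and is at least 4.99-fold over the limit. The gene was already known to be low when the list was made. Without Cthrc1, 5 of the other 42 genes were lower, or 11.9%. The other members too were chosen with earlier results known. Neither this share nor that of the full list is therefore independent of these data. Rspo3, an R-spondin that enhances Wnt signalling, read 5.74 and 4.16, above the limit on both arrays and 2.99-fold lower. Lgr4, an R-spondin receptor, read 6.58 and 7.19, a difference of 0.61 in the other direction. A ligand and a receptor of the same branch thus had differences of opposite sign, with only the ligand past 2-fold.

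**Figure D2:**
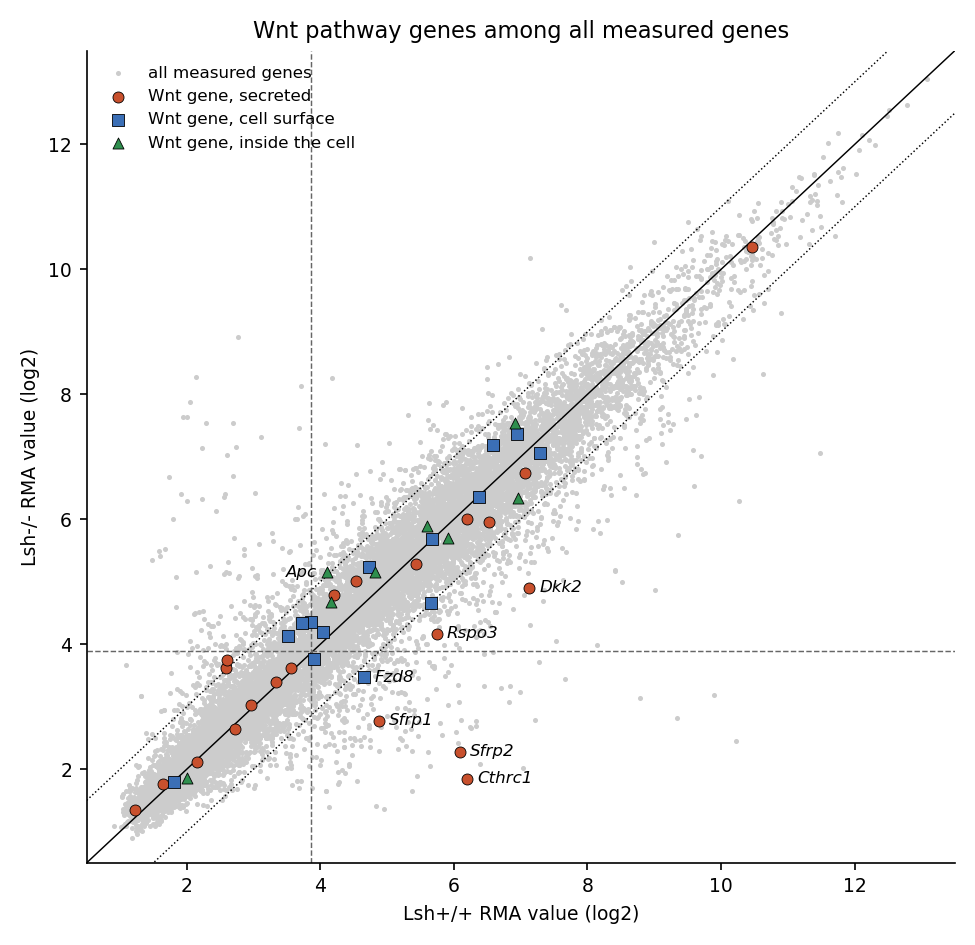
Lsh+/+ (horizontal) against Lsh-/- (vertical) RMA values on log2 axes, for all measured genes in grey and the Wnt genes by where their products act; the solid line marks equal values, dotted lines 2-fold differences and dashed lines the dimness limits. Cthrc1, Sfrp2, Sfrp1, Dkk2 and Rspo3, all secreted, lie below the lower dotted line together with Fzd8, and Apc lies just above the upper one.

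None of the 11 Wnt ligands differed by 2-fold with a value above the limit. Wnt4, a ligand of kidney and gonad development, was bright in both lines at 10.46 and 10.35, a difference of -0.10. Wnt5a, the main activator of Ror2 and of the polarity branch, read 7.06 and 6.74, a difference of -0.32. Wnt11, which also acts mostly without beta-catenin, read 6.52 and 5.95, the lowest ligand difference at -0.57. Wnt9a, known from joint formation, read 5.43 and 5.29. These 4 were slightly lower in the knockout, by less than 1.5-fold each. Wnt5b, a relative of Wnt5a, went the other way at 4.54 and 5.01, a difference of 0.47, as did Wnt10a, a ligand of skin and tooth development, at 4.20 and 4.79, a difference of 0.59.

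The other 5 ligands lay below the limit in both lines. Wnt2 read 2.59 and 3.62 and Wnt6 read 2.60 and 3.74, differences of 1.03 and 1.14 that pass 2-fold in size only, among values too dim to count. Exactly the same difference as that of Wnt2, to 6 decimals, was held by genes of other brightness, 4 measurements in all, and that of Wnt6 by 2. Wnt7b, Wnt10b and Wnt16 lay between 2.97 and 3.62 with differences of 0.06 to 0.07. Of the 11 ligands, 7 had differences above 0, and 4 after scaling to the hybridisation controls.

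Among the receptors, Fzd8 alone passed 2-fold. It read 4.66 and 3.47, a difference of -1.19 that is at least 1.71-fold over the limit, because the knockout value was dim. Ror2, the receptor tyrosine kinase that carries Wnt5a signals, read 5.66 and 4.67, above the limit on both arrays, and at -0.99 (1.98-fold) lay just inside the threshold. Its relative Ror1 was below the limit in both at 1.81 and 1.80. Fzd8 and Ror2 were thus the only receptors with a difference of more than 1.5-fold below 0.

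The other Frizzled receptors stayed within 2-fold. Fzd2 read 7.30 and 7.07, a difference of -0.23, and Fzd1 read 5.67 and 5.68. Fzd3, Fzd4, Fzd6 and Fzd7 were higher in the knockout by 0.62, 0.50, 0.52 and 0.62, and Fzd5 by 0.15. Of the 8 Frizzled genes, 6 therefore had differences above 0, though for Fzd3 and Fzd7 the wild type values, 3.51 and 3.73, lay below the limit. After scaling to the hybridisation controls Fzd1, Fzd5 and the co-receptor Lrp6 fell below 0 as well, and Fzd3, Fzd4, Fzd6 and Fzd7 stayed above it. Lrp6 read 6.95 and 7.37, a difference of 0.42, its relative Lrp5 3.91 and 3.76, and the Wnt receptor Ryk 6.38 and 6.36.

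Of the cytoplasmic transducers, Apc alone passed 2-fold. Apc, a scaffold of the beta-catenin destruction complex, read 4.10 and 5.15, a difference of 1.05 or 2.07-fold, just past the threshold. Apc lies on chromosome 18, whose 240 genes above the limit had a median difference of 0.42, and after that median was subtracted its difference was 0.63. Ctnnb1, which encodes beta-catenin, read 6.96 and 6.34, a difference of -0.62 or 1.53-fold lower. Axin1, the limiting scaffold of the complex, read 5.91 and 5.70, and Axin2, a relative that beta-catenin signalling induces, read 5.60 and 5.89, a difference of 0.29 that turns negative under the scaling to hybridisation controls. The destruction complex and its substrate thus did not differ in 1 direction.

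The nuclear factors were within 2-fold. Tcf7l1, which mostly represses Wnt targets, read 6.92 and 7.54, a difference of 0.62. Tcf7 read 4.82 and 5.15, a difference of 0.34 that turns negative under the scaling to hybridisation controls. Tcf7l2 read 4.16 and 4.67, a difference of 0.51, and its 7 further rows, which share 1 pair of values at 3.81 and 4.27, gave 0.46. Lef1 lay below the limit in both at 2.01 and 1.86. As deposited, the 3 factors above the limit were higher, by 1.26-fold to 1.53-fold. Tcf7l2 was the only member with further rows of other values; 7 other members had several rows that held the same pair, and 35 had 1 row.

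Position on the chromosomes was described next, since the median differences of chromosomes were not alike. Before any other scaling, all 5 Wnt genes of chromosome 6 (Wnt2, Wnt5b, Wnt16, Lrp6 and Tcf7l1) had differences above 0, from 0.06 to 1.03, where the 449 genes of that chromosome above the limit had a median of 0.28. Both ends of that range come from Wnt16 and Wnt2, which lay below the limit on both arrays and so are not among the 449. After scaling to the hybridisation controls Lrp6 and Wnt16 fell below 0. With each chromosome's median subtracted, Wnt16 fell to -0.22 and the other 4 lay between 0.14 and 0.74. Fzd8 is on chromosome 18 like Apc, and its difference became -1.61. Sfrp2 and Dkk2 share chromosome 3, with a median of -0.11 over 415 genes, and became -3.70 and -2.12. Subtracting the medians left the 6 lower genes past 2-fold and added Ror2 at -1.06, and it left no gene higher.

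The nearest measured protein-coding genes on either side of the 7 Wnt genes past 2-fold were read beside them. Of 28 such neighbours, 2 on each side of each gene in the GRCm38.p6 gene order, none was 2-fold or more apart by the counting rule, and 21 had a value above the limit on at least 1 array. With 5.92% of all measured genes apart by that rule, a count of 0 in 28 is near the background and shows nothing particular to these neighbours. Next to Cthrc1, Fzd6, itself a Wnt gene, differed by 0.52 and Slc25a32 by -0.39. On either side of Sfrp2, Plrg1 differed by -0.23 and Tlr2 by 0.27. Papss1 and Aimp1 beside Dkk2 differed by -0.57 and -0.26, both in the same direction as Dkk2 but by far less than its -2.23. Gins4 beside Sfrp1 differed by -0.14, and Zmat4 on its other side lay below the limit on both arrays, as did Gjd4 beside Fzd8. The genes next to Rspo3, Rnf146 and Cenpw, differed by 0.22 and 0.71. Wac beside Fzd8 was higher by 0.85, opposite in sign to Fzd8, and Mpp7, the next measured gene on that side, differed by 1.30 with both values below the limit. Around Apc, Srp19 was higher by 0.44 and Epb41l4a lower, at -0.56.

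**Figure D3:**
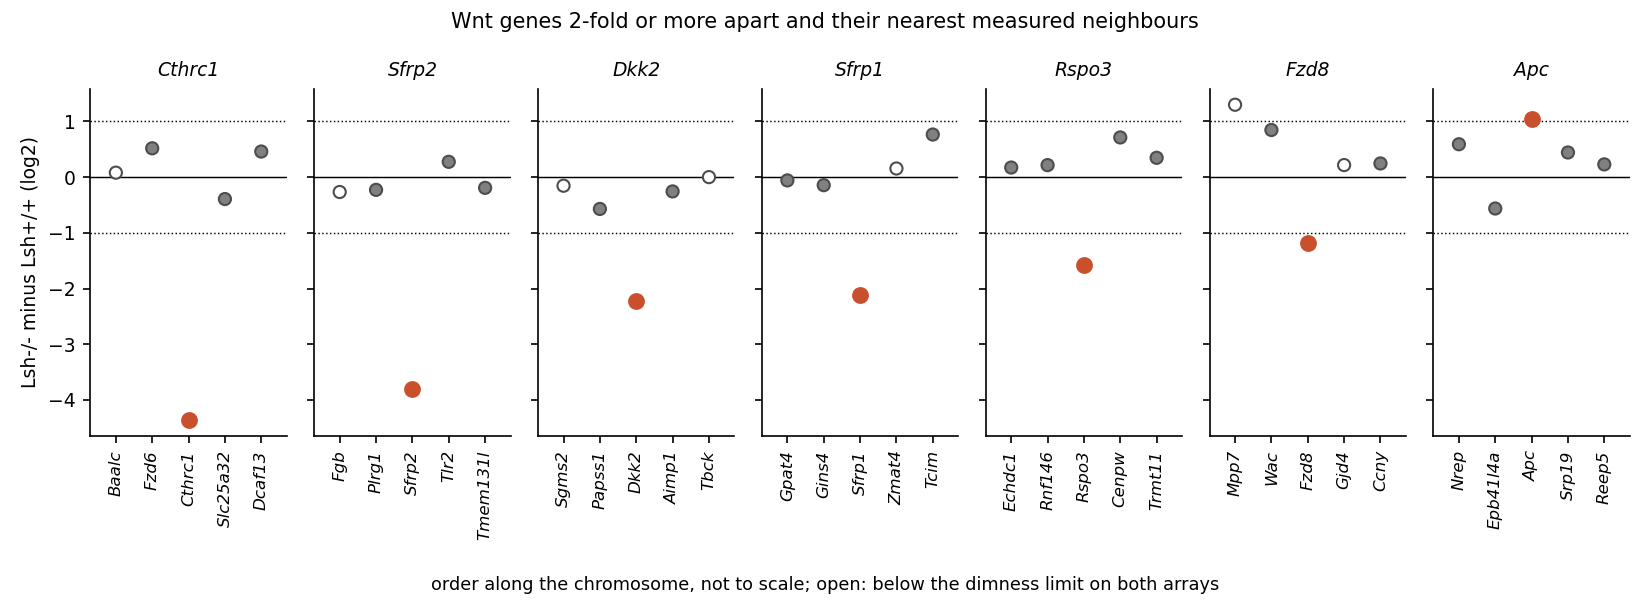
Differences (Lsh-/- minus Lsh+/+, log2, vertical axis) of the 7 Wnt genes at least 2-fold apart, in red, and of the 2 nearest measured protein-coding genes on each side, in grey or, where below the dimness limit on both arrays, as open circles; the order follows the chromosome and the spacing is not to scale. The lower Wnt genes lie at values from -4.36 to -1.19, and the neighbours of all 7 genes between -0.57 and 1.30.

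Further genes of the pathway were taken from a list of 68, of which 65 were measured. By the same rule 5 were at least 2-fold higher, or 7.69%, and 2 were lower, or 3.08%, and the list's median difference was 0.0069. Of all measured genes 2.57% were higher and 3.35% lower, so the list's share of lower genes was near the background. Its share of higher genes lay above the background, but the list was chosen with earlier results of these data known. That share is therefore not independent of them. Rnf43, the ubiquitin ligase that removes Frizzled receptors from the surface, read 2.24 and 4.53, a difference of 2.29, at least 1.59-fold over the limit. Lgr5, an R-spondin receptor and stem cell marker, read 2.50 and 4.45, a difference of 1.94, at least 1.5-fold over the limit. Both were dim in the wild type and only moderately above the limit in the knockout. Dact1, which binds Dishevelled, was 2.41-fold higher at 5.20 and 6.47, the polarity protein Vangl2 2.29-fold at 4.24 and 5.43, and Notum, a secreted enzyme that inactivates Wnt ligands, 2.20-fold at 4.97 and 6.11. These 3 were above the limit in both lines.

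The 2 lower genes of that list were Rspo1 and Apcdd1. Rspo1, an R-spondin like Rspo3, was bright in both lines at 9.12 and 7.79 and 2.51-fold lower. Apcdd1, a membrane-bound inhibitor of Wnt signalling, read 3.96 and 2.82, a difference of -1.14 that amounts to at least 1.05-fold over the limit. Rspo2 and Rspo4 lay below the limit in both lines, so both R-spondins with values above the limit were lower. Among the core components, Gsk3a and Gsk3b differed by -0.08 and -0.07, Dvl1 by -0.27, Csnk1a1 by 0.22, and Wls, which carries Wnt ligands to the cell surface, by -0.19. Under the scaling to hybridisation controls the split of 5 higher and 2 lower became 2 and 6. With that scaling 1.01% of all measured genes were higher and 8.14% lower, so lower genes became more frequent everywhere.

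The list of 26 genes known to be induced by Wnt and beta-catenin signalling in at least some tissues held 4 genes at least 2-fold higher, or 15.4%, and 1 lower, or 3.85%, with a median difference of 0.05. Of all measured genes 2.57% were higher and 3.35% lower, so here too the share of lower genes was near the background. The share of higher genes lay above it, but this list too was chosen with earlier results of these data known. The target list shares Axin2, Lef1, Tcf7 and Dkk1 with the 43 genes. With the list of 68 it shares Lgr5, Znrf3, Rnf43, Notum and Dact1, and all 4 higher targets, Rnf43, Lgr5, Dact1 and Notum, were among these. Nkd1, an inducible inhibitor that acts on Dishevelled, was the lower one at 3.99 and 2.89, at least 1.08-fold over the limit. Other common targets were within 2-fold: Axin2 at 0.29, Znrf3 at 0.57, Ccnd1 at 0.05, Myc at -0.02, Ccn4 at 0.17 and Cd44 at -0.76. Lef1, Sp5 and Dkk1 were below the limit in both lines. The targets therefore did not differ in 1 direction. After scaling to the hybridisation controls 2 were higher and 3 lower, where 1.01% of all measured genes were higher and 8.14% lower.

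**Figure D4:**
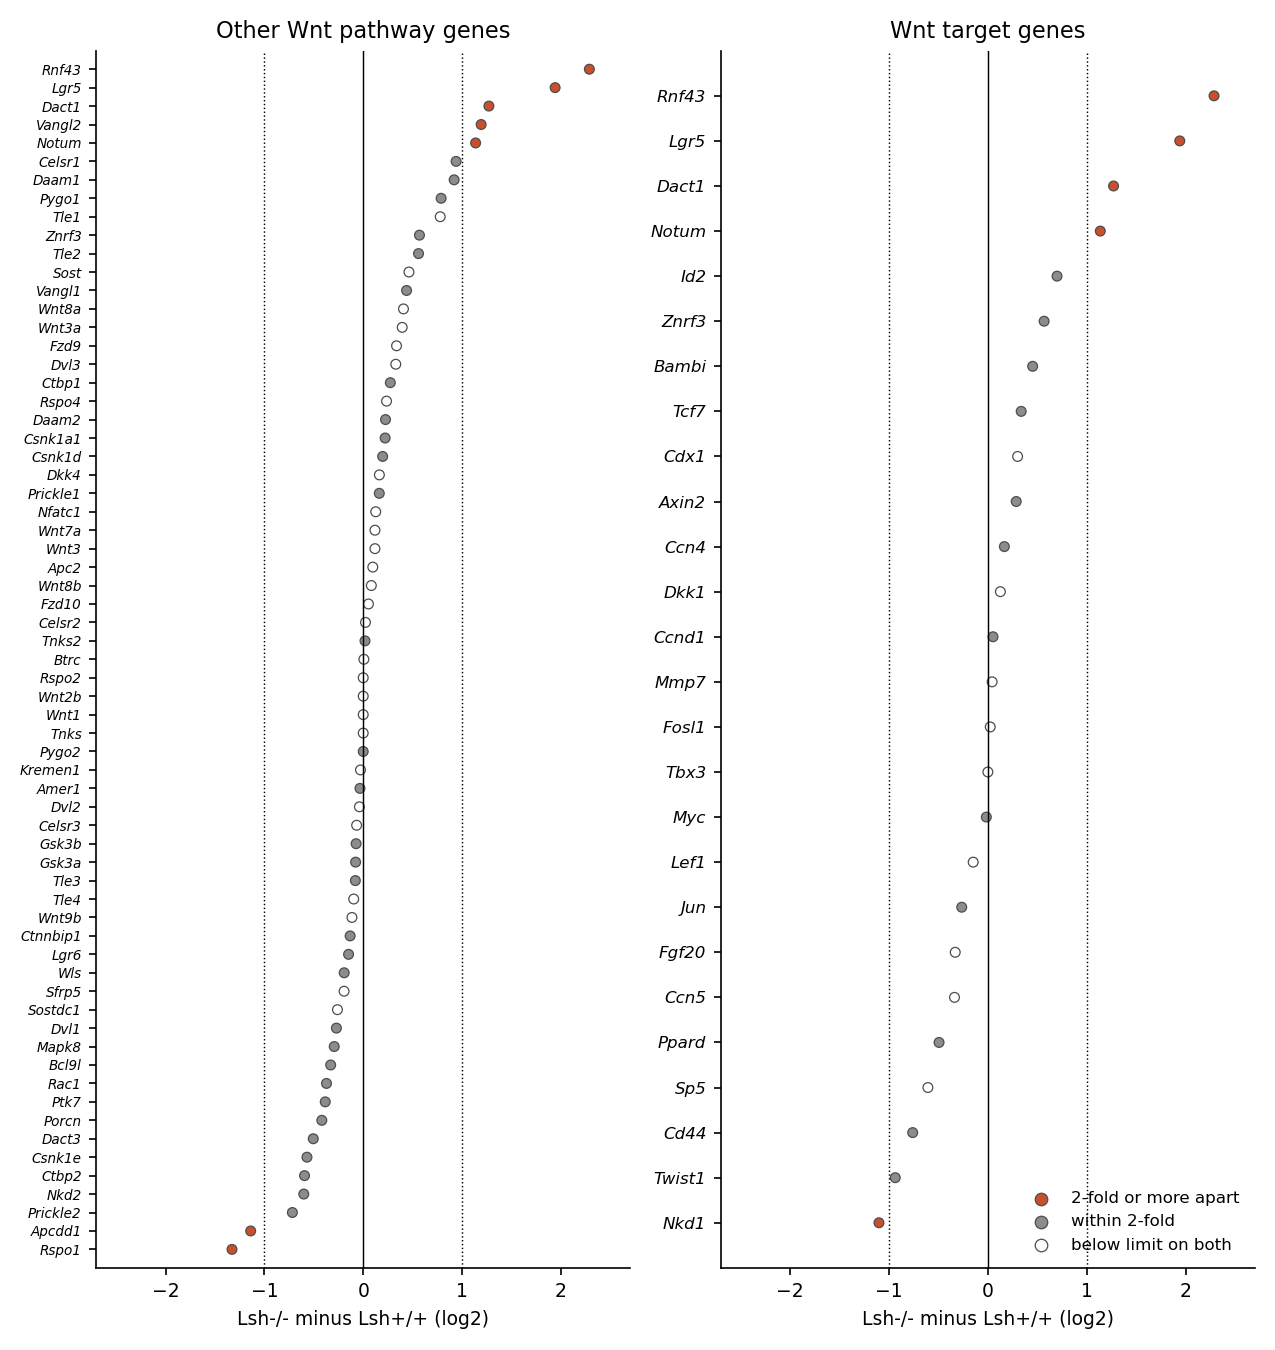
Differences (Lsh-/- minus Lsh+/+, log2, horizontal axis) of the 65 further Wnt pathway genes (left) and the 26 Wnt target genes (right), in order of size, with red for genes at least 2-fold apart by the counting rule, grey for genes within 2-fold and open circles for genes below the dimness limit on both arrays. Rnf43 and Lgr5 stand highest on both sides, Rspo1 is lowest on the left and Nkd1 on the right, and most genes lie near 0.

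The 6 lower genes kept their direction under all 7 recomputations of the values, and Apc kept its own. Not all of the 7 could change a direction. Each of these genes had 1 row, so the mean of all rows and the dimmest row returned the deposited value by construction. Scaling to the hybridisation controls lowers every difference alike, so it could not turn a lower gene, and a pseudocount cannot change a sign. Cthrc1, Sfrp2 and Dkk2 were past 2-fold in each recomputation, with values from -4.79 to -1.57, from -4.25 to -1.44 and from -2.67 to -1.48. Sfrp1, Rspo3 and Fzd8 were past 2-fold in all but 1, the addition of a pseudocount of 32 on the linear scale, under which they were -0.66, -0.78 and -0.41. Apc fell under 2-fold in 4 of the 7, at 0.98 with loess, 0.61 with scaling to the hybridisation controls, 0.46 with the pseudocount and 0.63 with the chromosome medians subtracted.

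**Figure D5:**
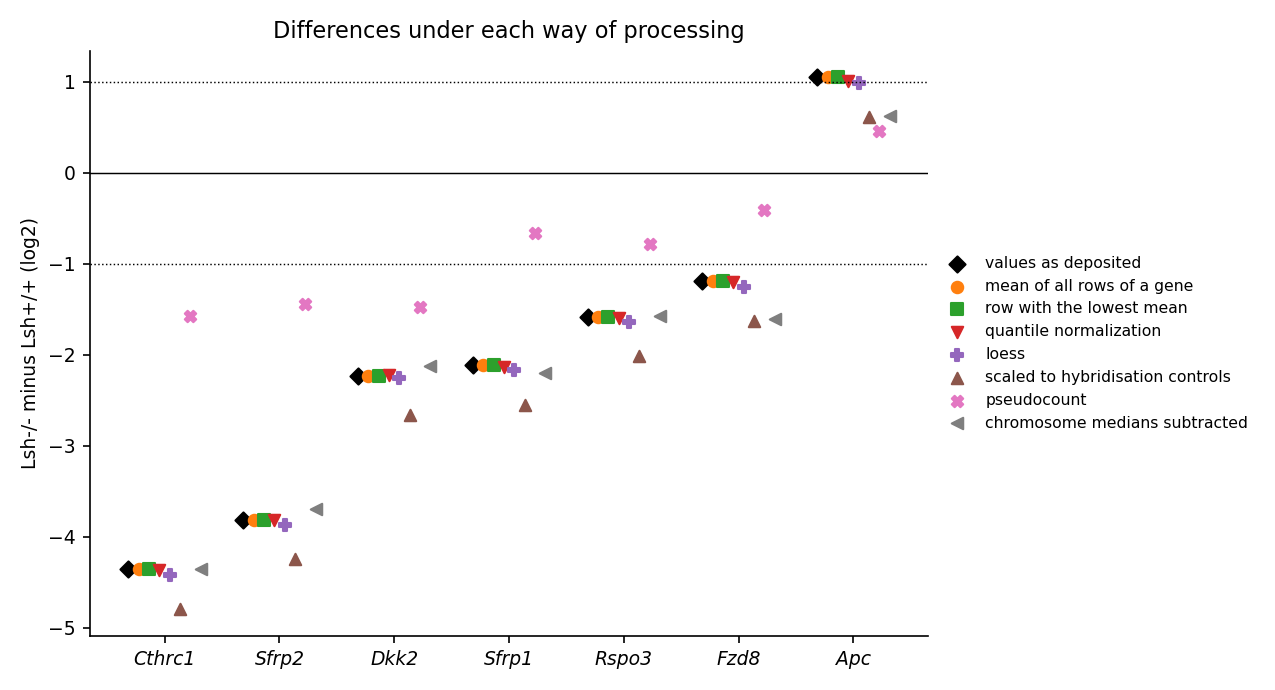
Differences (Lsh-/- minus Lsh+/+, log2, vertical axis) of the 7 Wnt genes at least 2-fold apart, as deposited (black diamonds) and under 7 other ways of processing, with dotted lines at 2-fold. All values of the 6 lower genes stay below 0, the pseudocount brings each nearest to 0, and Apc crosses the 2-fold line under 4 of the 7. The mean of all rows and the dimmest row repeat the deposited value, since each gene has 1 row.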

How the data were processed

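Total RNA from the 2 lines was extracted with Trizol, labelled with biotin and hybridised, 1 array per genotype, per the labels' protocols. The authors deposited log2 values made with RMA (background correction, quantile normalization and summary of probes), as the submitters' processing notes name it. The RMA version, how probes were grouped and which genome build served are not stated in the sources used here. The scale of the deposited values, log2, was inferred from a range of 0.89 to 13.1. Of 23950 rows, 64 were control probe sets, 21230 matched 1 gene of the GRCm38.p6 gene table by RefSeq accession without version, and 2656 matched none and were left out. Where a gene had several rows, the one brightest on average was taken, and 9168 of 16579 genes reached the dimness limit.

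Counts used a 2-fold threshold over all measured genes, and no p-value was computed. Where the dimmer value lay below its limit, "at least" is the brighter value over that limit. The members, gene lists, motifs and naming rule were chosen with earlier results of these data known. All members are given by role. Of the further pathway and target genes, those past 2-fold are named, and other genes of these lists, all neighbours and the markers were named after their values were seen. The counting was tested on simulated data, with noise set from the spread of these arrays and changes past the threshold planted in bright genes only. It does not show how the rule treats changes in dim genes or near the threshold. Alternatives were the mean of all rows of a gene or its dimmest row, other limits, quantile normalization, loess (span 0.3), scaling to hybridisation controls, a pseudocount of 32, thresholds of 1.5-fold and 3-fold and, added after seeing the data, subtraction of chromosome medians. Python 3.11.15, numpy 2.4.6, pandas 2.3.3 and statsmodels 0.14.6 were used.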

Additional observations from a re-analysis of the deposited data

How the results depend on the processing

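No paired analysis was possible because there was a single array for each genotype. For the same reason leaving out a replicate was not an option. The counts of 6 lower and 1 higher Wnt gene, and of 7 further pathway genes and 5 target genes past 2-fold, were recomputed. Without a limit 3 Wnt genes were higher, Wnt2 and Wnt6 besides Apc, where 2.91% of all genes were higher. No Wnt gene was higher with the limit at the upper quartile, loess, scaling to hybridisation controls, the pseudocount, 3-fold or subtraction of chromosome medians, each a count of 0. Of all genes 1.36%, 2.42%, 1.01%, 0.61%, 0.79% and 2.22% were higher in these settings, in that order. A count of 0 is therefore near the background. At 1.5-fold 6 were higher and 8 lower, where 7.56% of all genes were higher and 7.64% lower. At 3-fold 4 were lower (1.45% of all genes) and with the limit on the mean of both arrays 5 (2.73%). With the limit at the upper quartile 3 Wnt genes were lower (1.89% of all genes), as were 3 with the pseudocount (1.16%), in both Sfrp2, Dkk2 and Cthrc1. The further pathway genes became 4 with the limit on the mean of both arrays, 3 at the upper quartile, 1 with the pseudocount, 13 at 1.5-fold and 2 at 3-fold. The target genes became 2, 2, 0, 8 and 2 in the same order. Of all measured genes 2.04%, 1.36%, 0.61%, 7.56% and 0.79% were higher in that order. The lower shares were 2.73%, 1.89%, 1.16%, 7.64% and 1.45%. A stricter limit or threshold can, by construction, only lower a count. The median of the Wnt genes moved from 0.0069 to -0.43 with scaling to hybridisation controls, which moved that of all genes to -0.42. Of the recomputed differences of the 7 Wnt genes past 2-fold and of Wnt6, Tcf7l1 and Tcf7l2, 62 moved by less than 1.5-fold, and the 8 that moved further did so under the pseudocount, which shrinks dim differences by construction. Many of the 62 could not move further, so their number does not measure stability. Only Tcf7l2 among these genes had rows of other values, so the choice of row left the rest unchanged. Scaling to hybridisation controls moves every difference by the same 0.44, which is less than 1.5-fold.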

Other observations

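The same difference between the arrays, equal to 6 decimals, often recurred between genes of different brightness. It did so for 50.1% of all measured genes, for 76.3% of the 7411 genes below the dimness limit, for 28.9% of those that reached it and for 11.8% of the 982 genes past 2-fold. Among the Wnt genes 14 of 43 shared their difference in this way, and of the 11 below the limit 9 did. The 0.12 of Wif1 was held by 73 distinct measurements, the 0.06 of Wnt16 by 74, the -0.08 of Frzb by 53 and the -0.15 of Lef1 by 41, while none of the 7 Wnt genes past 2-fold shared its difference with a gene of other values. The 50.1% includes 729 genes, no Wnt gene of the 43 among them, with a difference of exactly 0. Of these 729 genes, 616 lay below the limit.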
